A study of Homo sapiens with 6 samples.

Results

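The 34 genes described here act in homologous recombination and in the Fanconi anaemia pathway, together with the kinases and mediators that signal DNA damage to them. They were chosen by gene symbol, and all 34 were among the 56303 genes of the count table. RNA-seq had been performed on 786-O cells, a human clear cell renal cell carcinoma (ccRCC) line that lacks a functional VHL tumour suppressor. There were 3 libraries of cells given control siRNA, labelled WT and 0 h, and 3 libraries of cells given siRNA against NFE2L3, labelled as knockdown and 48 h. NFE2L3 encodes a transcription factor of the cap'n'collar family. The genotype label of knockdown replicates 2 and 3 reads NFE2L4 and NFE2L5, but their titles and source names give NFE2L3. In this design the effect of the siRNA and that of the labelled time cannot be told apart. Which NFE2L3 siRNA was used, and whether the libraries came from separate cultures, were not given in the sources used here, so the p-values measure the spread between these libraries of 1 cell line, which may be technical. The comparison addressed which of these transcripts changed when NFE2L3 was knocked down.

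Homologous recombination repairs a broken chromosome by copying the intact sister chromatid. The MRE11-RAD50-NBN complex binds the break and activates the kinase ATM, nucleases resect the ends, and BRCA1, PALB2 and BRCA2, with the help of XRCC2, XRCC3, RAD51C and RAD51D, prepare the exposed strand for the search for the intact copy. In the Fanconi pathway, a core complex and the conjugating enzyme UBE2T ubiquitinate the FANCD2-FANCI clamp at interstrand crosslinks, and the crosslink is then unhooked and repaired partly by recombination. Many of these genes are transcribed mainly in late G1 and S phase, and E2F proteins are among their known regulators.

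Deposited read counts totalled 53051297 to 57391929 in the control libraries and 51828446 to 56806368 in the knockdown libraries. Levels are given as CPM, read counts relative to the library total after TMM scaling, and log2 fold changes are those of knockdown over control from edgeR's quasi-likelihood test. A gene was called at a Benjamini-Hochberg adjusted p under 0.05 over the 19916 genes that passed the filter on low counts. NFE2L3 itself fell from 115 ± 1.96 to 19.8 ± 0.881 CPM (SD, n = 3 each; log2 fold change -2.54, SE 0.0482, edgeR adjusted p = 3.98e-22). Of 10 renal and 786-O markers 9 passed the filter, and CA9 had 0 to 6 reads per library. Of the 9, 1 (11.1%) was higher and 4 (44.4%) were lower after knockdown, beside 12.7% and 14.0% of all tested genes. The hypoxia-inducible factor gene EPAS1 was higher, at 220 and 241 CPM in the control and knockdown groups. The lower markers were the renal transcription factor PAX8, at 241 and 217 CPM, the cadherin CDH2 (log2 fold change -0.39) and the keratins KRT8 (-0.32) and KRT18 (-0.25). The part of these marker changes in the values of the repair genes was not tested. Of 15 markers of other cell types, 13 were under 1 CPM in both groups, with CDH5, UMOD and INS at 0 in every library. The exceptions were CD68, lower at 132 and 118 CPM, and EPCAM, higher at 7.47 and 9.05 CPM.

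All 34 repair genes passed the filter, with 128 to 21525 reads per gene and library. After knockdown 7 of them were higher (BRCA2, XRCC2, RAD50, ATM, FANCD2, BRCA1 and MDC1), 4 were lower (FANCC, BARD1, NBN and TP53BP1) and 23 were not called. The 7 higher genes were 20.6% of the 34, beside 12.7% of all tested genes, and the 4 lower genes were 11.8%, beside 14.0% of all tested genes. Among the 12260 tested genes whose control level lay within the range of these 34 (3.12 to 287 CPM), 16.1% were higher and 20.3% lower, and 36.4% were called in all, beside 32.4% of the 34. The median log2 fold change of the 34 was 0.04, beside 0.00 for all tested genes (-0.0007), with 20 values above 0 and 14 below. Their median absolute log2 fold change, 0.09, stood beside 0.16 for all tested genes and 0.13 for those at like levels. At an unadjusted p under 0.05 and a fold of 2, edgeR called 0 of the 34, beside 1.10% of all tested genes in either direction, and DESeq2 and limma also called 0. At an unadjusted p under 0.05 alone edgeR gave 13 of the 34, beside 36.7% of all tested genes. The 3 knockdown libraries all lay above the 3 control libraries for 8 of the 34, beside 19.1% of all tested genes, and all below them for 5, beside 20.4%.

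**Figure D1:**
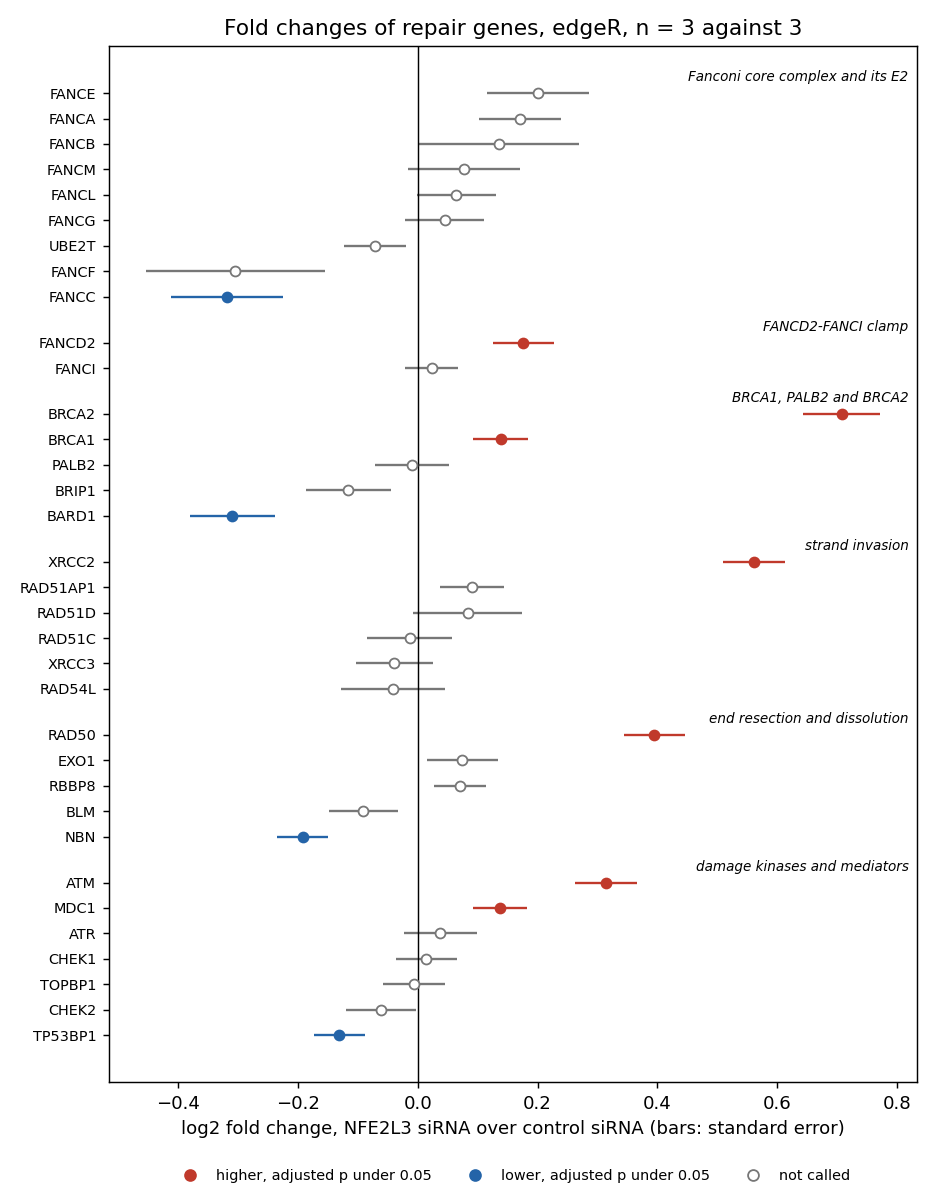
Log2 fold change of each of the 34 repair genes (x axis; knockdown over control, edgeR, n = 3 against 3), grouped by role, with bars for 1 standard error and filled points for genes with an adjusted p under 0.05. BRCA2 (0.71), XRCC2 (0.56) and RAD50 (0.39) lie farthest to the right, FANCC (-0.32) and BARD1 (-0.31) farthest to the left among called genes, and most of the open points lie within 0.20 of 0.

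Because E2F proteins regulate many genes of this kind, the RefSeq promoter windows (GRCh38.p14, 250 bases before to 50 after each transcription start) were searched for 4 forms of the E2F site, TTTGGCGC, TTTCCCGC, TTTCGCGC and TTTGCCGC, on both strands. No window was available for NBN, which was lower, or FANCI, which was not called, so neither was searched. Windows were found for the other 32 of the 34 genes, 42 windows in all. An E2F form lay in 6 of them (14.3%), each of a different gene, beside 3.31% of all 35116 windows and 4.66% of the windows of tested genes. The 7 stretches below are all the matches found. They lie in the windows of XRCC2 and FANCD2, which were higher, FANCC, which was lower, and TOPBP1, EXO1 and FANCA, which were not called. They read 5′ to 3′ on the strand of the gene, with the letters of the E2F form in capitals:
XRCC2, chr7:152676102-152676131, minus strand: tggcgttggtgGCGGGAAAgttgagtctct
FANCD2, chr3:10026424-10026453, plus strand: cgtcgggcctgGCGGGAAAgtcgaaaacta
FANCC, chr9:95317737-95317766, minus strand: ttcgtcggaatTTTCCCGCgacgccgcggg
FANCC, chr9:95317863-95317892, minus strand: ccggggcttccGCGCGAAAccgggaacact
TOPBP1, chr3:133661930-133661959, minus strand: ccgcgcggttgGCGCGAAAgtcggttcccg
EXO1, chr1:241848197-241848226, plus strand: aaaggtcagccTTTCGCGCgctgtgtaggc
FANCA, chr16:89816801-89816830, minus strand: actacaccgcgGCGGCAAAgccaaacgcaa

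XRCC2 and FANCD2 held the same 8 letters, which FANCC, a lower gene, held on the opposite strand (TTTCCCGC). The other FANCC stretch and that of TOPBP1 shared GCGCGAAA, which EXO1 held on the opposite strand (TTTCGCGC). Both FANCC stretches belonged to 1 window. Letters of these forms were not in the windows of BRCA2, RAD50, ATM, BRCA1 or MDC1, the other genes that were higher. A match describes the letters only and not binding. The NFE2L3 motif GTCACNCT was in 0 of the 42 windows, beside 3.39% of all windows and 3.21% of those of tested genes. The core of the antioxidant response element, TGACNNNGC, was in 2 (4.76%, beside 13.3% and 14.4%), 1 of them in FANCD2. The CCAAT box was in 20 windows of 16 genes (47.6%, beside 34.6% and 34.4%), the cell cycle homology region TTTGAA in 5 (11.9%, beside 15.2% of all windows but 10.7% of those of tested genes) and the NRF1 core GCATGCGC in 2 (4.76%, beside 3.05% and 4.45%), 1 of them in XRCC2. For 10 of the 32 genes, BRCA2 and RAD50 among them, none of the 9 motif forms searched was in a window.

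Of the 5 genes grouped around BRCA1, PALB2 and BRCA2, BRCA2 and BRCA1 were higher, BARD1 was lower, and PALB2 and BRIP1 were not called. BRCA2 (chr13:32315474-32400266, plus strand, GRCh38), a mediator that acts on the resected single-stranded DNA, was at 15.5, 14.6 and 13.6 CPM in the control libraries and at 24.5, 22.6 and 24.3 CPM in the knockdown libraries. The groups did not overlap, and the difference of their means (14.6 ± 0.931 and 23.8 ± 1.05 CPM) was larger than the spread within either (log2 fold change 0.71, SE 0.0638, edgeR adjusted p = 7.04e-09). Its fold of 1.63 was the largest of the 34 genes. BARD1 (chr2:214725646-214809711, minus strand), the partner with which BRCA1 forms a ubiquitin ligase, moved the other way. It was at 14.5, 15.2 and 13.7 CPM in the control libraries and at 11.8, 11.3 and 12.0 CPM after knockdown, without overlap (log2 fold change -0.31, SE 0.0703, edgeR adjusted p = 0.00165).

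BRCA1, whose protein is unstable without BARD1, was at 51.8 ± 2.15 CPM in the control and 57.0 ± 1.01 CPM in the knockdown group (SD, n = 3 each; log2 fold change 0.14, SE 0.0461, edgeR adjusted p = 0.0268). Its libraries did not overlap, but the call was lost without control replicate 3 (adjusted p = 0.149) or without knockdown replicate 1 (0.0520), 2 (0.111) or 3 (0.0691). It was also lost when no filter on low counts was used (0.0523). PALB2, which bridges BRCA1 and BRCA2, was at 18.6 and 18.4 CPM with a log2 fold change of -0.01. BRIP1, a helicase that binds BRCA1, was at 15.4 and 14.2 CPM (log2 fold change -0.12, edgeR adjusted p = 0.254).

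Among the 6 genes of strand invasion, XRCC2 was higher and the other 5 were not called. XRCC2 (chr7:152644779-152676165, minus strand), a subunit of a complex with RAD51C and RAD51D, was at 38.6, 33.8 and 35.5 CPM in the control libraries and at 53.7, 53.7 and 51.8 CPM in the knockdown libraries. The lowest knockdown library was well above the highest control library, and the means were 36.0 ± 2.46 and 53.1 ± 1.13 CPM (log2 fold change 0.56, SE 0.0515, edgeR adjusted p = 9.28e-09). RAD51D, which binds XRCC2 directly, was at 9.04 ± 0.910 and 9.58 ± 1.06 CPM (log2 fold change 0.08). RAD51C, found in both that complex and a smaller one, was at 18.2 ± 2.15 and 18.0 ± 0.140 CPM, and XRCC3, its partner in the smaller complex, at 19.3 ± 1.51 and 18.8 ± 0.219 CPM. RAD51AP1, which stimulates strand exchange, was at 34.8 ± 1.54 and 37.1 ± 2.01 CPM (log2 fold change 0.09, edgeR adjusted p = 0.224). The translocase RAD54L was at 7.66 ± 0.503 and 7.44 ± 0.168 CPM. The libraries of the 2 groups overlapped for each of these 5 genes.

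**Figure D2:**
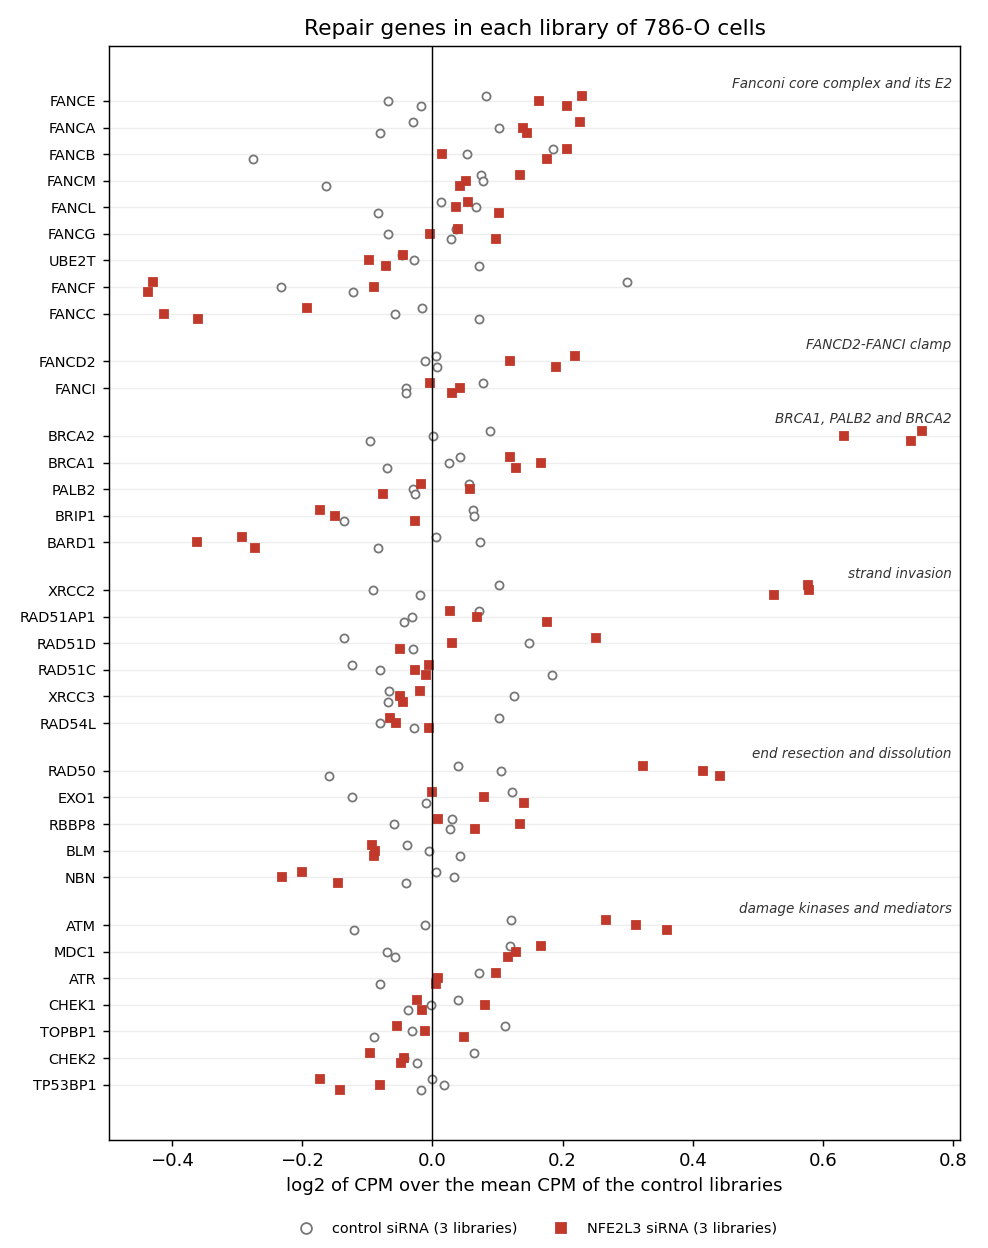
Level of each of the 34 repair genes in each library, as log2 of its CPM over the mean CPM of the 3 control libraries (x axis), with open circles for control and filled squares for knockdown libraries. The squares of BRCA2, XRCC2, RAD50 and ATM stand clear to the right of all their circles, those of BARD1, FANCC and NBN to the left, and those of MDC1 meet the highest control library.

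Of the 9 genes of the Fanconi core complex and its E2 enzyme, FANCC was lower and 8 were not called. FANCC (chr9:95099054-95426796, minus strand), a core subunit that joins FANCE and FANCF, was at 7.26, 7.06 and 7.71 CPM in the control libraries and at 6.42, 5.52 and 5.72 CPM after knockdown. The groups did not overlap (7.34 ± 0.334 and 5.89 ± 0.476 CPM, log2 fold change -0.32, SE 0.0936, edgeR adjusted p = 0.0126). Without control replicate 3, or without knockdown replicate 2 or 3, the adjusted p was 0.0569, 0.0701 and 0.0522. FANCF was at 3.37 ± 0.681 and 2.72 ± 0.386 CPM with a similar log2 fold change of -0.30, but its libraries overlapped and it did not pass (SE 0.150, edgeR adjusted p = 0.142).

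FANCE had knockdown libraries that all lay above the control libraries (7.05 ± 0.376 and 8.10 ± 0.186 CPM), with a log2 fold change of 0.20 and an edgeR adjusted p of 0.0873. FANCA, a large core subunit, was likewise without overlap, at 14.1 ± 0.935 and 15.9 ± 0.537 CPM (log2 fold change 0.17, edgeR adjusted p = 0.0661), and it passed under upper quartile scaling (0.0360) and without control replicate 2 (0.0283). FANCL, the ubiquitin ligase subunit, had a log2 fold change of 0.06, and its partner FANCB one of 0.14. FANCG, which binds FANCA, was at 0.05, and FANCM, the translocase that anchors the complex to DNA, at 0.08 on the same scale. UBE2T, the conjugating enzyme, was at 32.4 ± 1.44 and 30.8 ± 0.570 CPM (log2 fold change -0.07, edgeR adjusted p = 0.351).

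In the clamp that these enzymes modify, FANCD2 was higher and FANCI was not called. FANCD2 (chr3:10026414-10101930, plus strand) was at 31.9, 31.5 and 31.9 CPM in the control libraries and at 37.0, 34.5 and 36.2 CPM in the knockdown libraries. The control libraries lay close together and all 3 knockdown libraries were above them (31.8 ± 0.230 and 35.9 ± 1.27 CPM, log2 fold change 0.18, SE 0.0503, edgeR adjusted p = 0.0101). The call was lost without knockdown replicate 1 (adjusted p = 0.0623). FANCI, its partner in the clamp, was at 73.6 ± 3.56 and 74.8 ± 1.21 CPM (log2 fold change 0.02).

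Among the genes of end resection and of the dissolution of recombination intermediates, RAD50 was higher, NBN was lower and 3 were not called. RAD50 (chr5:132556019-132646344, plus strand), the ATPase that tethers broken ends, was at 295, 309 and 257 CPM in the control libraries and at 360, 383 and 390.2 CPM in the knockdown libraries. It had the largest absolute difference of the 34 genes, 90.4 CPM between means of 287 ± 26.7 and 378 ± 16.0 CPM, without overlap (log2 fold change 0.39, SE 0.0509, edgeR adjusted p = 1.75e-06). NBN, the subunit that recruits ATM to the same complex, was at 87.7, 89.4 and 85.0 CPM in the control libraries and at 76.0, 74.4 and 79.0 CPM after knockdown. These groups did not overlap either (log2 fold change -0.19, SE 0.0429, edgeR adjusted p = 0.00141). MRE11A, the nuclease subunit, is not among the 34 genes and was looked up after the values of the other subunits were seen. It was at 44.1 ± 3.76 and 47.6 ± 1.53 CPM (log2 fold change 0.11, edgeR adjusted p = 0.139).

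RBBP8, which encodes the resection factor CtIP, was at 111 ± 3.87 and 117 ± 5.13 CPM (log2 fold change 0.07, edgeR adjusted p = 0.249). The exonuclease EXO1 was at 31.6 ± 2.71 and 33.3 ± 1.62 CPM (log2 fold change 0.07). The helicase BLM had knockdown libraries all below the control libraries, at 21.2 ± 0.596 and 19.9 ± 0.0322 CPM, and was not called (log2 fold change -0.09, edgeR adjusted p = 0.267).

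Of the 7 damage kinases and mediators, ATM and MDC1 were higher, TP53BP1 was lower, and ATR, CHEK1, CHEK2 and TOPBP1 were not called. ATM (chr11:108222484-108369102, plus strand), the apical kinase of the response to DNA breaks, was at 57.4, 52.4 and 48.5 CPM in the control libraries and at 63.5, 65.5 and 67.8 CPM in the knockdown libraries. All knockdown libraries were above all control libraries (52.8 ± 4.44 and 65.6 ± 2.13 CPM, log2 fold change 0.31, SE 0.0525, edgeR adjusted p = 5.90e-05). TP53BP1, which restrains resection, was at 83.5, 84.5 and 82.4 CPM in the control libraries and at 74.1, 79.0 and 75.7 CPM after knockdown, without overlap (log2 fold change -0.13, SE 0.0426, edgeR adjusted p = 0.0238). The call was lost under upper quartile scaling (adjusted p = 0.0624) and without control replicate 2 (0.0629), knockdown replicate 1 (0.126) or knockdown replicate 3 (0.0884).

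MDC1, the scaffold that binds phosphorylated histone H2AX, was at 212.2, 186 and 188 CPM in the control libraries and at 219, 214 and 211.7 CPM in the knockdown libraries. The highest control library lay above the lowest knockdown library (log2 fold change 0.14, SE 0.0455, edgeR adjusted p = 0.0265). The call was lost without control replicate 2 (adjusted p = 0.144) or 3 (0.124) and without knockdown replicate 1 (0.102), 2 (0.0612) or 3 (0.0605). ATR, the kinase of replication stress, was at 20.0 ± 1.05 and 20.5 ± 0.750 CPM, and its activator TOPBP1 at 52.7 ± 3.83 and 52.5 ± 1.89 CPM. The effector kinase CHEK1 was at 37.2 ± 0.987 and 37.6 ± 1.54 CPM and CHEK2 at 21.1 ± 0.846 and 20.2 ± 0.390 CPM. The log2 fold changes of these 4 lay between -0.06 and 0.04.

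BRCA2, XRCC2, RAD50, ATM, BARD1 and NBN were called in each of the 16 alternative fits that tested against no change. The other 5 called genes lost the call in at least 1 of them, as given beside each. When the test asked for a fold above 1.2, 3 genes passed as higher (BRCA2, XRCC2 and RAD50), beside 2.15% of all tested genes, and 0 as lower, beside 2.26%.

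Levels were compared between genes per kilobase of exon (RPKM). In the control group they ran from 0.772 RPKM for FANCM to 30.4 RPKM for UBE2T, a range of 39.3-fold, with a median of 3.85 RPKM beside 2.56 for all tested genes. The genes above 10 RPKM were UBE2T (30.4), RAD50 (29.4), MDC1 (24.2), RBBP8 (21.8), NBN (14.2) and RAD51AP1 (13.6). UBE2T and RAD50 did not differ beyond their spread in the control libraries, while after knockdown RAD50 was at 38.6 RPKM and UBE2T at 28.9 RPKM. The 5 genes below 1 RPKM were FANCM (0.772), FANCC (0.788), FANCF (0.790), RAD51D (0.800) and FANCB (0.970), which did not stand apart from each other. BRCA2 was the next lowest level at 1.19 RPKM and reached 1.94 RPKM after knockdown, beside 1.93 RPKM for BARD1, which had been at 2.39 RPKM.

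**Figure D3:**
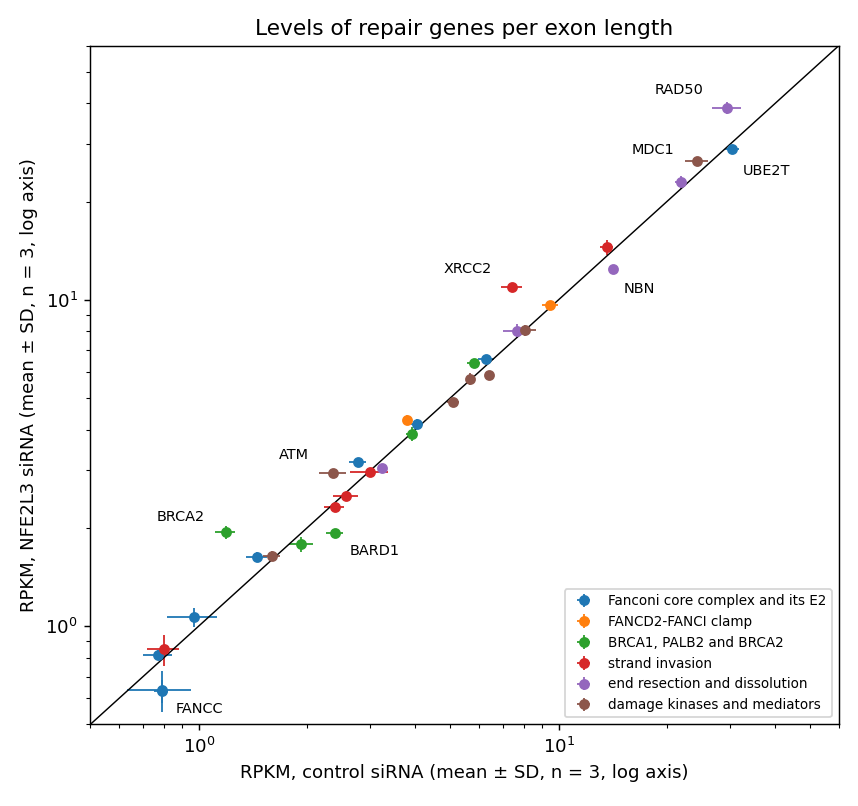
Mean RPKM of each of the 34 repair genes in the control group (x axis) and the knockdown group (y axis), both on log axes, with bars for the SD over 3 libraries and the line of equal levels. Most genes lie on the line, RAD50, XRCC2, ATM and BRCA2 above it, and BARD1, NBN and FANCC below it.

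Other genes of the same pathways were also called in both directions, as were 12.7% (higher) and 14.0% (lower) of all tested genes. Of 37 further recombination genes, 7 (18.9%) were higher and 3 (8.11%) lower (median log2 fold change 0.04). In all 27.0% of them were called, beside 26.7% of all tested genes. Among the higher genes were EME1, a subunit of a structure-specific nuclease (log2 fold change 0.30), and the helicase RECQL (0.28). RPA3, the small subunit of the single-strand binding complex (-0.32), the helicase MCM8 (-0.26) and SWI5, a recombination cofactor (-0.15), were lower. Of 17 further Fanconi and crosslink genes 1 (5.88%) was higher and 2 (11.8%) were lower. The higher gene was the translesion polymerase subunit REV3L (0.21), and the lower genes were the crosslink nucleases DCLRE1A (-0.59) and ERCC4 (-0.35).

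Among 24 further damage signalling genes 8 (33.3%) were higher and 2 (8.33%) lower, beside 12.7% and 14.0% of all tested genes. ETAA1, an activator of ATR (0.55), TIPIN, of the fork protection complex (0.38), and RIF1, a TP53BP1 effector (0.30), were among the higher genes, and HUS1, of the checkpoint clamp (-0.26), and BABAM1, of the BRCA1-A complex (-0.13), were the lower genes. In end joining, the pathway that competes with recombination for broken ends, 0 of 14 genes were higher and 4 (28.6%) lower. Among all tested genes 12.7% were higher and 14.0% lower, and whether these 14 shifted as a set was not tested. The lower genes were APLF (-0.29), XRCC6 (-0.19) and XRCC5 (-0.14), the last pair being the Ku subunits, and XRCC1 (-0.13). XRCC1 was near the threshold (edgeR adjusted p = 0.0453) and its libraries overlapped. DESeq2, limma and edgeR's exact test gave 0 higher end joining genes too. At an unadjusted p under 0.05 the quasi-likelihood test, DESeq2 and limma gave 1 and the exact test 0. Base and nucleotide excision repair had 4 of 22 genes higher (18.2%), UNG (0.62), XPC (0.30) and LIG1 (0.26) among them. The 1 lower gene (4.55%) was ERCC2 (-0.20).

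Cell cycle genes were counted as well, since many repair genes follow the cycle. Of 31 G1/S and replication genes 14 (45.2%) were higher and 1 (3.23%) lower, beside 12.7% and 14.0% of all tested genes. The median log2 fold change of the 31 was 0.14. The helicase subunit MCM3 (0.60), the clamp PCNA (0.41) and thymidylate synthase TYMS (0.29) were among the higher genes, and the polymerase subunit POLA1 (-0.27) was the lower gene. Of 23 G2/M genes 5 (21.7%) were higher and 4 (17.4%) lower. The kinetochore genes CENPE (1.04) and CENPF (0.74) and the spindle gene HMMR (0.26) were higher, and TOP2A (-0.37), AURKB (-0.32) and AURKA (-0.23) were lower. Of 20 E2F, RB and DREAM regulators 3 (15.0%) were higher and 3 (15.0%) lower. The higher genes were E2F1 (0.64), RBL1 (0.38) and MYBL2 (0.16), and the lower genes E2F7 (-0.40), FOXM1 (-0.31) and RBBP4 (-0.16). By flow cytometry, the paper reported a higher percentage of 786-O cells in G0/G1 phase after NFE2L3 knockdown. Read counts do not measure the phases, and how these gene lists relate to that result was not tested. The part of a shift in the cell cycle in the values of the repair genes was not tested either. In bulk RNA a changed share of cells in a phase and a changed amount of RNA per cell cannot be told apart.

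**Figure D4:**
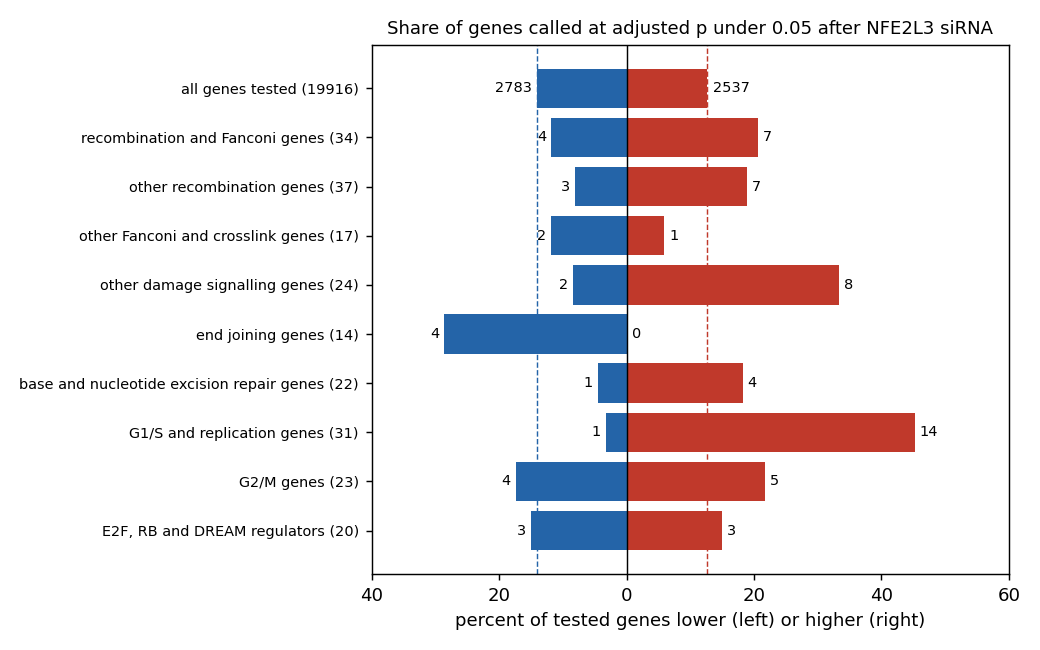
Percent of tested genes called lower (bars to the left) or higher (bars to the right) at an adjusted p under 0.05 in each gene list, with the number tested in parentheses, the number called at the end of each bar, and broken lines at the shares of all tested genes (14.0% lower, 12.7% higher). The 34 repair genes reach 20.6% to the right and 11.8% to the left, and the G1/S and replication genes reach 45.2% to the right.

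Exons of 18 of the 34 genes share bases with another gene, in most cases on the opposite strand. The strand setting of the counting was not given in the sources used here, so reads from such bases could not be assigned with certainty. The largest overlap was that of XRCC3, where 5756 bases (76.7% of its exon bases) lie opposite KLC1, a gene at 233 CPM. TP53BP1 shares 28.7% of its exon bases with TUBGCP4, RAD54L 25.1% with LRRC41, FANCA 23.6% with ZNF276, FANCL 18.7% with VRK2 and ATR 16.4% with an antisense transcript at 0.537 CPM. MDC1 shares 8.69% with MDC1-AS1, which was at 69.1 CPM over all libraries and had the same log2 fold change, 0.14 (edgeR adjusted p = 0.0403). RAD50 shares 2.49% with TH2LCRR (log2 fold change 0.32, edgeR adjusted p = 0.0107), which was at 6.57 CPM beside 332 CPM for RAD50. ATM shares 0.64% with NPAT (log2 fold change 0.30, edgeR adjusted p = 0.00615). On the same strand, RAD51D shares 8.01% with the read-through gene RAD51L3-RFFL. Listed pseudogene copies of FANCD2, RAD51AP1, RBBP8 and CHEK2 were at 0.00628 CPM or less. Across the 34 genes, which share libraries and are not independent replicates, the log2 fold change had a Spearman rho of -0.0854 with the GC content of the transcript and 0.191 with the exon length in the deposited table, beside 0.0576 and 0.0519 across 12943 tested genes with a transcript.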

How the data were processed

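Per the labels and the methods, poly(A) RNA of 786-O cells was made into stranded libraries with molecular identifiers. The instrument was a DNBSEQ-T7 in the labels and an Illumina model in the methods. The authors trimmed reads with Trimmomatic 0.36, collapsed molecular identifiers, mapped to Ensembl's human genome with STAR 2.5.3a, counted exon reads with featureCounts (Subread 1.5.1) and tested with edgeR 3.12.1. The deposited table holds raw counts per gene and library, with GRCh38 positions and exon length. Even numbers made up 67.6% to 69.9% of counts under 30, so halved counts were tried as an alternative.

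From the counts, CPM, RPKM and quasi-likelihood tests were computed with R 4.3.3 and edgeR 4.0.16 (filterByExpr minimum 10, TMM, no block), which kept 19916 genes with a biological coefficient of variation of 4.76%. Standard errors were taken from each fold change and the F value of its test. The script was tested on simulated data. Over all tested genes, libraries within groups differed by 4.00 to 7.55 in chi-square per degree of freedom, more than counting error alone gives. Genes with many reads weigh most in that value. For genes with few reads, such as FANCF (128 to 220 reads per library), counting error cannot be taken as small. Alternatives were RLE, upper quartile and library total scaling, DESeq2 1.42.0, edgeR's exact test, limma 3.58.1 (voom), 2 other filters, halved counts, a replicate block, a fold of 1.2 and each library left out. All 34 genes are named. From each other list up to 3 called genes in each direction with the smallest adjusted p are named, and XRCC1 and MRE11A were added after their values were seen. Some genes of these lists, and the mismatch repair list, are not reported here. The members and lists were chosen with earlier results of these data known, so they are no independent evidence. GC content came from the longest coding transcript of each gene in GENCODE v44lift37, used for its sequence only, and length from the deposited exon lengths.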

Additional observations from a re-analysis of the deposited data

How the results depend on the processing

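Over 16 alternatives, 510 of the values of single genes kept their direction and side of the threshold, 18 calls were lost, 2 were gained and 14 values near 0 changed sign. NFE2L3 kept its call in all of them. A required fold of 1.2 left 3 genes higher and 0 lower (0 also at an unadjusted p under 0.05), beside 428 and 451 of all 19916 tested genes, by that test's construction. Upper quartile scaling gave a median log2 fold change of 0.0613 and moved the median of all genes to 0.02. It turned PALB2 to 0.0105, RAD51C to 0.0064 and TOPBP1 to 0.0138. With each library left out in turn, 4 (without knockdown replicate 1) to 7 genes were higher and 2 (without knockdown replicate 3) to 4 lower, and the median ran from 0.0079 (without control replicate 3) to 0.0639 (without control replicate 1). It was 0.0199 without control replicate 2.

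Leaving out 1 library also changed the sign of 8 uncalled genes: PALB2 ran from -0.0458 to 0.0209, RAD54L from -0.0828 to 0.0115, TOPBP1 from -0.0498 to 0.0531, XRCC3 from -0.0729 to 0.0263, RAD51C from -0.0704 to 0.0868, ATR from -0.0021 to 0.0747, CHEK1 from -0.0203 to 0.0345 and RAD51D from -0.0090 to 0.1629. The cause was not tested.

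Control and knockdown libraries with the same replicate number did not deviate together (correlations -0.0121, -0.0159 and -0.0195, and 0 of 6 libraries correlated best with its own number). With the number as a replicate block, 7 genes were higher and 4 lower, and over all genes 2278 were higher and 2504 lower, against 2537 and 2783 without the block.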
